A study of Mus musculus with 6 samples.

Results

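Alveolar macrophages are the resident phagocytes of the air spaces, where they clear surfactant, debris and inhaled particles. In mice they mature around birth under GM-CSF from the alveolar epithelium and under TGF-beta, signals that act through the nuclear receptor PPAR-gamma, and they are known for their lipid handling. Their transcripts were followed here through 9 genes chosen by name: Chil3, Marco, Siglecf, Pparg, Krt79, Ear1, Ear2, Fabp1 and Plet1. All 9 were found among the 19639 genes of the deposited count table, and 8 of them passed the filter on low counts. Fabp1 did not pass it and was not tested.

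The libraries were bulk RNA sequencing of mouse lung. The 6 libraries all came from mice labelled RPM. For 3 of them the mice were infected with a lentivirus named shThoc1, by its name a hairpin against Thoc1, and for 3 with one named shControl. RPM is the usual name of a small cell lung cancer model with loss of Rb1 and Trp53 and overexpression of Myc, so both groups share that tumour background. THOC1, the product of Thoc1, belongs to the THO complex of mRNA export. The labels used here give no age, strain, promoter or cell type for the model. Nor do they say if each library had its own animal, so the tests see only library-to-library spread, part or all of which may be technical. In the titles, shThoc1 replicates 2 and 3 share their first number and replicate 1 has another, with no word on what it marks.

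The libraries held between 9934583 and 15025199 counts, with shThoc1 replicate 2 the shallowest. Thoc1 itself was at 53.4, 69.5 and 61.4 CPM (counts per 1e6 counts of scaled library size) in shThoc1 replicates 1, 2 and 3, against 85.7, 80.2 and 85.8 CPM in shControl. Thoc1 was thus lower in each shThoc1 library, by a log2 fold change of −0.45 (SE 0.17), and missed edgeR's threshold (adjusted p = 0.304). shThoc1 replicate 2 stood apart in its tissue make-up. The sum of 10 alveolar type 2 cell genes was 22722, 868 and 21275 CPM in the 3 shThoc1 libraries and 6852, 16374 and 7396 CPM in the 3 shControl libraries. In shThoc1 replicate 2 the adipokine gene Adipoq was at 147 CPM, the brown fat gene Ucp1 at 361 CPM, the upper airway gene Bpifa1 at 8927 CPM and the T cell gene Cd3e at 84.1 CPM. In the other 5 libraries these 4 genes were at 0 to 7.10 CPM, 0.0743 to 0.586 CPM, 1.51 to 154 CPM and 3.08 to 6.74 CPM. For Adipoq, Ucp1 and Bpifa1 the top of that range was shControl replicate 3, while Cd3e was lowest in it. The fold changes of the 9 genes are therefore given with and without shThoc1 replicate 2. In a bulk sample, fewer cells of a type and less RNA per cell cannot be told apart.

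Every one of the 8 tested alveolar macrophage genes had a log2 fold change above 0 in shThoc1 over shControl, with a median of 1.13, and none passed the test. Over all 15287 genes tested, 52.1% were above 0 and the median was 0.03. The share of genes with an adjusted p under 0.05 by edgeR's quasi-likelihood test was 0% among all genes tested and 0 of 8 among these genes. At an unadjusted p under 0.05, 3 of the 8 genes were higher, namely Pparg, Plet1 and Siglecf, where 6.93% of all genes were higher at that level. DESeq2 called 0 of the 9 genes, against 5.94% of all genes with an adjusted p, and the authors' deposited table also has 0 of 9, against 5.72% of its genes. In the authors' deposited table the smallest adjusted p of the 9 belongs to Pparg (0.0907). The groups did not overlap for Siglecf, Pparg and Plet1, 3 of the 8 tested genes, where 11.1% of all genes tested lay above shControl without overlap. With 3 libraries against 3 an exact two-sided permutation test cannot go below p = 0.1, the value these 3 genes had.

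**Figure D1:**
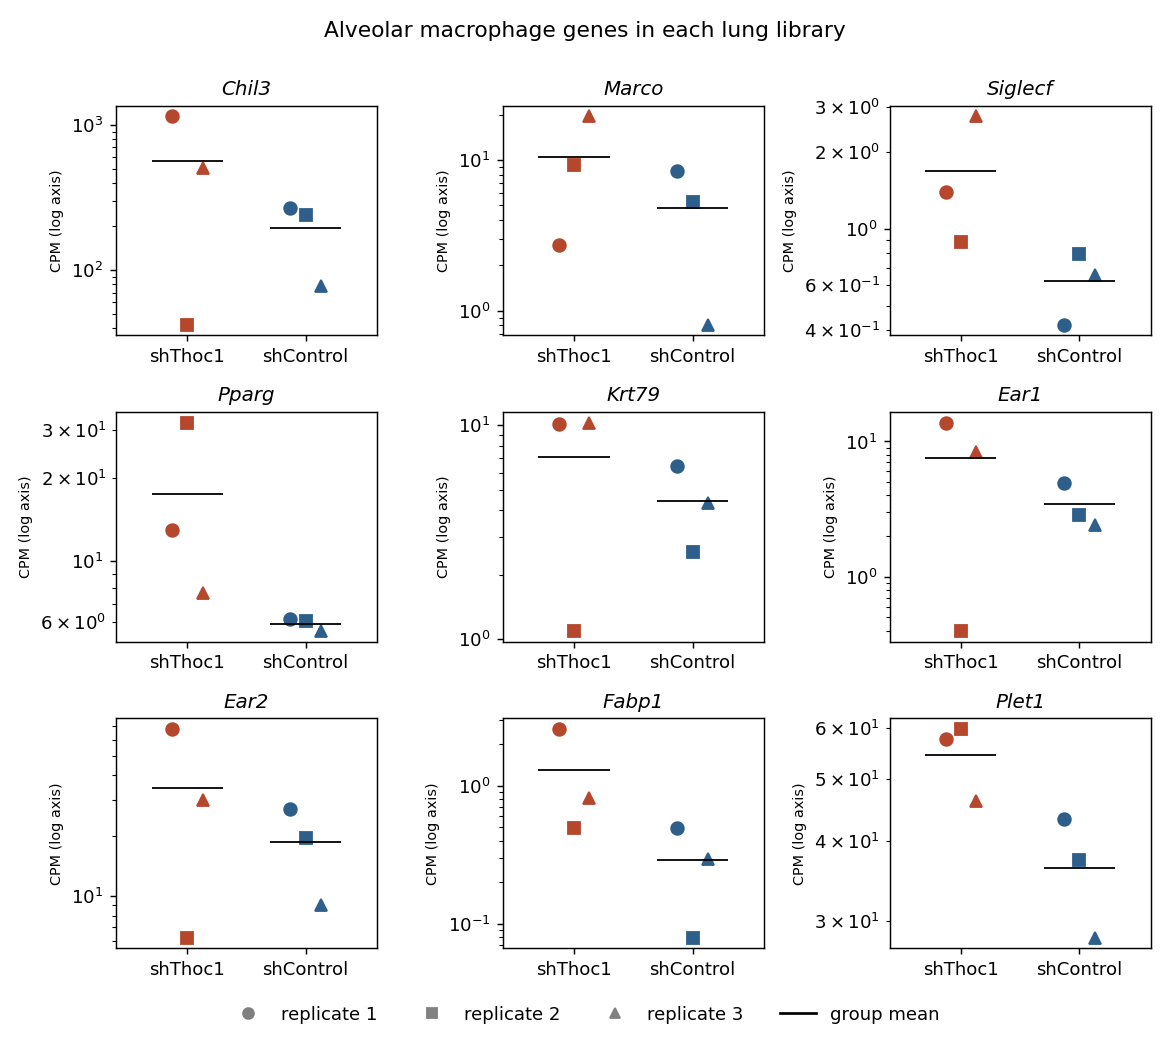
Level of each of the 9 genes in each library, in CPM on a log axis, with shThoc1 on the left and shControl on the right. Points are libraries (circle, square and triangle for replicates 1, 2 and 3) and lines are group means. Chil3, Krt79, Ear1 and Ear2 were lowest in shThoc1 replicate 2, while Pparg and Plet1 were highest in it.

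The 9 genes did not follow a single pattern over the libraries. Chil3, Ear1, Ear2 and Krt79 lay above every shControl library in shThoc1 replicates 1 and 3 and below every shControl library in shThoc1 replicate 2. This pattern was described after the values had been seen. It was shared by 10.1% of all genes tested and by 4 of the 8 tested genes here. Siglecf was highest in shThoc1 replicate 3 and Fabp1 in shThoc1 replicate 1, both with few counts in any library. Marco had an order of its own, and Pparg and Plet1 were highest in shThoc1 replicate 2.

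**Figure D2:**
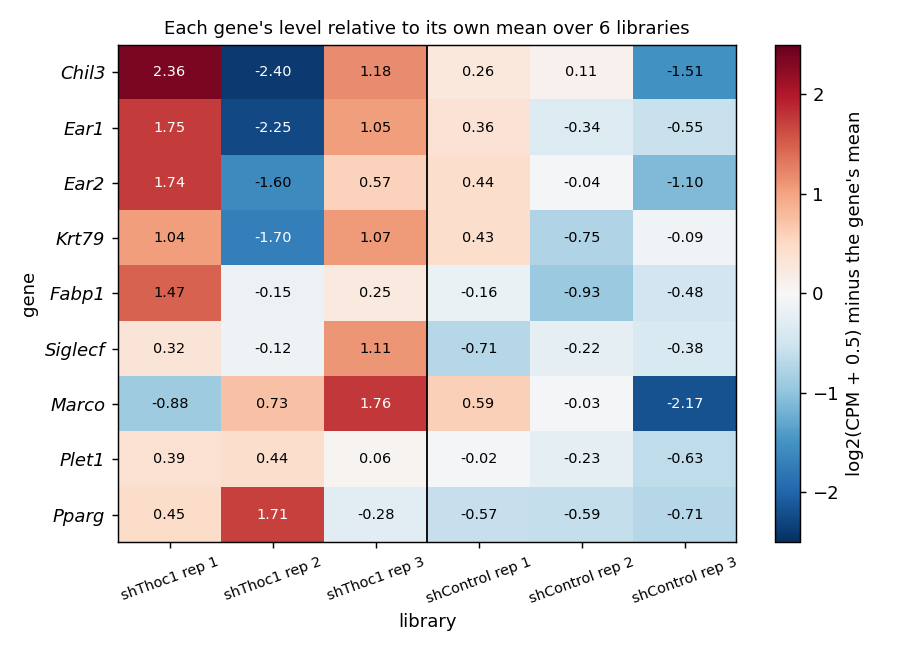
Level of each gene in each library relative to the gene's own mean, as a difference in log2(CPM + 0.5), with the 3 shThoc1 libraries left of the black line and the 3 shControl libraries right of it. In shThoc1 replicate 2 Chil3 stood at −2.40 and Ear1 at −2.25, while Pparg stood at 1.71.

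Chil3 encodes a chitinase-like lectin, also called Ym1, that mouse alveolar macrophages secrete and that other myeloid cells can express. Per exon length it was the most abundant of the 9 genes in 5 of the 6 libraries, at 347 ± 341 CPM per kilobase of exon in shThoc1 and 119.9 ± 63.0 in shControl (SD, n = 3 each). The exception was shThoc1 replicate 2, with 25.7 CPM per kilobase for Chil3 and 30.7 for Plet1. Chil3 was at 1151, 41.9 and 507 CPM in shThoc1 replicates 1, 2 and 3, against 268, 241 and 78.1 CPM in shControl replicates 1, 2 and 3. The groups overlapped, since the lowest value of all belonged to shThoc1 replicate 2 and the 2 highest to the other shThoc1 libraries. The highest library held 27.5 times the level of the lowest. By log2 fold change Chil3 was higher by 1.53 (SE 1.09, edgeR adjusted p = 0.471). Without shThoc1 replicate 2 it was 2.02 (SE 0.61, adjusted p = 0.0953), and without shThoc1 replicate 1 it was 0.44 (SE 1.02, adjusted p = 0.911).

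Ear1 and Ear2 encode eosinophil-associated ribonucleases, secreted enzymes of the RNase A family that mouse alveolar macrophages also express. Ear2 was at 67.8, 6.22 and 29.9 CPM in shThoc1 replicates 1, 2 and 3, against 27.2, 19.4 and 9.01 CPM in shControl. Ear1 was at 13.8, 0.395 and 8.32 CPM in shThoc1, the second value from 4 counts, against 4.97, 2.87 and 2.42 CPM in shControl. Both were highest in shThoc1 replicate 1 and lowest in shThoc1 replicate 2, so the groups overlapped. As log2 fold changes these came to 1.14 (SE 1.06, adjusted p = 0.576) for Ear1 and 0.91 (SE 0.84, adjusted p = 0.578) for Ear2 by edgeR. Without shThoc1 replicate 2 they were 1.63 (SE 0.45, adjusted p = 0.0818) for Ear1 and 1.34 (SE 0.55, adjusted p = 0.161) for Ear2. Without shThoc1 replicate 1 the value for Ear2 was −0.07 (SE 0.75, adjusted p = 0.982), a turn of direction, and that for Ear1 was 0.30 (SE 1.12, adjusted p = 0.943).

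Ear1 and Ear2 are near copies of each other. The 250 bases before each start are shown here 5′ to 3′ because the likeness reaches beyond the transcripts, as RefSeq gives them for the mouse build GRCm38.p6, a build other than that of the counts. Ear1 was read from chr14:43819640-43819889 on the minus strand and Ear2 from chr14:44102404-44102653 on the plus strand. Capitals mark the bases that differ when they are aligned, and there were 2 such mismatches. These bases lie outside the counted transcripts, so they do not bear on how reads were assigned.
Ear1: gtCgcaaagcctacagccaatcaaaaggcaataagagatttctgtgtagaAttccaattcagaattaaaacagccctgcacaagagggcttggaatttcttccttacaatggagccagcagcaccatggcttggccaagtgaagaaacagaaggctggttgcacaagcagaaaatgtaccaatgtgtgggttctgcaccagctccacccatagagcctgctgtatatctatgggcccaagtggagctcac
Ear2: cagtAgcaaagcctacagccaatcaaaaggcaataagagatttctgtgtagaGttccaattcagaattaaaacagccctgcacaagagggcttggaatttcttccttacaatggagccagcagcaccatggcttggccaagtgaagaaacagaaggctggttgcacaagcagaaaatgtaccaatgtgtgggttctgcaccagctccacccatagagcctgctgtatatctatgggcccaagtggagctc

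The transcripts of Ear1 and Ear2 in GENCODE M21 were identical at 96.8% of their paired bases, with a longest identical stretch of 96 bases. The counting tool is not given in the sources used here, so reads could have been split between Ear1 and Ear2, and their single values are uncertain. In that annotation Ear1 also overlaps Ear-ps9 on the same strand, a gene that is not among those of the deposited count table. Ear1 made up 16.9%, 5.97% and 21.8% of the counts of both genes in shThoc1 replicates 1, 2 and 3, against 15.5%, 12.9% and 21.2% in shControl replicates 1, 2 and 3. The share of 5.97% came from 67 counts. Both genes held the same order of the shThoc1 libraries and of the shControl libraries.

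Chil3 has the neighbour Chil4, which encodes the related lectin Ym2. The 250 bases before both starts are shown because this pair is less alike there than Ear1 and Ear2, again from RefSeq on GRCm38.p6 and on the minus strand, Chil3 from chr3:106167565-106167814 and Chil4 from chr3:106219480-106219729. Capitals mark bases that differ or have no partner between the first and the last paired base.
Chil3: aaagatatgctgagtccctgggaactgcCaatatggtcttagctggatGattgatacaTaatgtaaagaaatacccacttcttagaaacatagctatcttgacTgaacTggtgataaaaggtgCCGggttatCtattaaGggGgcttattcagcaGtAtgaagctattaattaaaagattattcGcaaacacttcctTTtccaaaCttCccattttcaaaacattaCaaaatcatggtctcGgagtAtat
Chil4: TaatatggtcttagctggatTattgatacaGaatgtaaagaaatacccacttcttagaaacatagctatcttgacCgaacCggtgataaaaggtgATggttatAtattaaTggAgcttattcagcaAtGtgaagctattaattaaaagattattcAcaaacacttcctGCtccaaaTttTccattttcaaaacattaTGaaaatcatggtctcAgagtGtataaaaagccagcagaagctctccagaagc

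The upstream stretches of Chil3 and Chil4 were identical at 91% of their paired bases and the transcripts at 94.4%, with a longest identical stretch of 136 bases. Chil4 had 0, 2 and 1 counts in shThoc1 replicates 1, 2 and 3, against 12, 1 and 0 counts in shControl replicates 1, 2 and 3. Chil3 had 16556, 424 and 6829 counts in shThoc1 and 3826, 3028 and 1066 counts in shControl. Nearly all counts of the pair were thus assigned to Chil3 in each library, and how many of them could come from Chil4 transcripts was not tested.

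Krt79 encodes a keratin that is listed among alveolar macrophage transcripts in mice and is otherwise known from epithelia. It was at 10.1, 1.09 and 10.3 CPM in shThoc1 replicates 1, 2 and 3, against 6.44, 2.55 and 4.32 CPM in shControl. The groups overlapped, with shThoc1 replicate 2 the lowest of the 6 libraries. Krt79 had a log2 fold change of 0.69 (SE 0.83, adjusted p = 0.666 by edgeR), and it was 1.13 (SE 0.44, adjusted p = 0.145) without shThoc1 replicate 2. The value of Krt79 was 0.31 without shThoc1 replicate 1, 0.30 without shThoc1 replicate 3 and 0.37 without shControl replicate 2.

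Of the 10 alveolar type 2 cell genes, 9 were lowest in shThoc1 replicate 2, the library where Chil3, Ear1, Ear2 and Krt79 were lowest, and Lyz1 was the exception. Sftpc was at 12597, 161 and 12337 CPM in shThoc1 replicates 1, 2 and 3, against 2983, 9364 and 4084 CPM in shControl replicates 1, 2 and 3. Within shControl the order was another, since Chil3 was highest in replicate 1, where Sftpc was lowest. All 10 alveolar type 2 genes were above 0, with a median log2 fold change of 0.46, and 0 passed the test. Without shThoc1 replicate 2 the median was 0.83 and 1 passed, where 1.65% of all genes tested passed. Lyz1, which had the smallest p of that list, was at 158, 134 and 132 CPM in shThoc1 and 48.6, 48.8 and 36.7 CPM in shControl (adjusted p = 0.304). Etv5, a transcription factor of these cells, was at 182, 10.4 and 152 CPM in shThoc1 and 52.2, 95.2 and 48.3 CPM in shControl. The share of alveolar tissue in each piece was not measured, and its part in the macrophage gene levels was not tested.

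**Figure D3:**
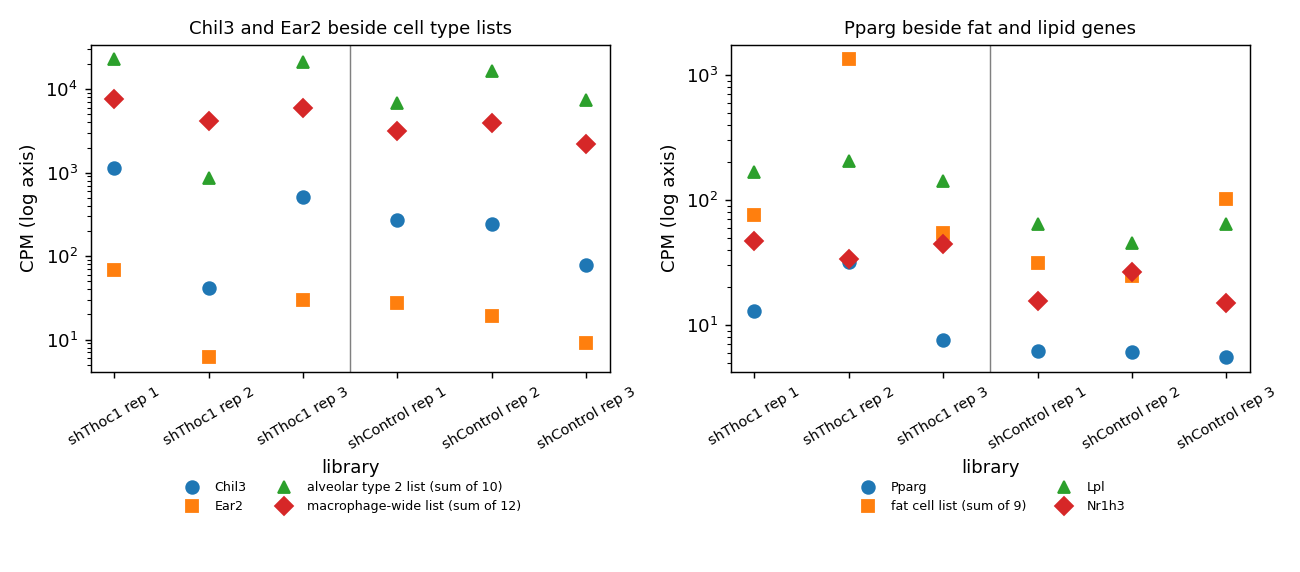
CPM per library on log axes, with the 3 shThoc1 libraries left of the grey line and the 3 shControl libraries right of it. On the left Chil3 and Ear2 stand beside the summed CPM of the alveolar type 2 list and of the macrophage-wide list, and the type 2 sum was 868 CPM in shThoc1 replicate 2. On the right Pparg stands beside the summed CPM of the fat cell list, which was 1333 CPM in that library, and beside Lpl and Nr1h3.

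Marco encodes a scavenger receptor with a collagen-like stalk that binds bacteria and particles. It was at 2.71, 9.28 and 19.5 CPM in shThoc1 replicates 1, 2 and 3, against 8.40, 5.26 and 0.806 CPM in shControl. The groups overlapped, and shThoc1 replicate 1, the library highest in Chil3, was the second lowest in Marco. Its log2 fold change was 1.12 (SE 0.99, adjusted p = 0.557 by edgeR), and 1.13 (SE 1.11, adjusted p = 0.515) without shThoc1 replicate 2. When each library was left out, the value of Marco ranged from 0.39 without shThoc1 replicate 3 to 1.76 without shControl replicate 1. Marco was 24.2 times as high in the highest library as in the lowest, shControl replicate 3.

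Siglecf encodes a sialic acid-binding lectin used to gate mouse alveolar macrophages, which eosinophils carry as well. It had 20, 9 and 37 counts in shThoc1 replicates 1, 2 and 3, against 6, 10 and 9 counts in shControl. In CPM these were 1.39, 0.889 and 2.75 in shThoc1 and 0.420, 0.797 and 0.659 in shControl. The groups did not overlap in CPM, by a margin of 9 counts in the shallowest library against 10 in shControl replicate 2. The log2 fold change of Siglecf was 1.42 (SE 0.57, adjusted p = 0.307 by edgeR), and it ranged from 0.88 without shThoc1 replicate 3 to 1.65 (SE 0.54, adjusted p = 0.108) without shThoc1 replicate 2. Siglecf alone was called by voom with sample quality weights (log2 fold change 1.89, SE 0.60, adjusted p = 0.0416), a fit in which 20.4% of all genes were called higher. Of the 4 eosinophil genes in the table, Ccr3 and Il5ra were at the edge of detection, while Prg2 and Alox15 passed the filter on low counts. Ccr3, the eotaxin receptor, had 1 to 4 counts and Il5ra 0 to 6 counts per library, and Epx was not analysed here. The granule gene Prg2 was at 10.3, 4.35 and 6.39 CPM in shThoc1 replicates 1, 2 and 3 and 1.89, 4.46 and 3.73 CPM in shControl (adjusted p = 0.337), and Alox15 was at 0.347, 50.5 and 0.446 CPM in shThoc1 and at 1.12, 0.478 and 1.10 CPM in shControl. The summed CPM of the 4 eosinophil genes in the table ran from 6.91 to 55.5 in shThoc1 and from 3.29 to 5.26 in shControl. Their part in the levels of Siglecf, Ear1 and Ear2 was not tested.

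Fabp1, a cytosolic fatty acid-binding protein best known from liver and gut, had 37, 5 and 11 counts in shThoc1 replicates 1, 2 and 3, against 7, 1 and 4 counts in shControl. In CPM it was at 2.57, 0.494 and 0.817 in shThoc1 and at 0.490, 0.0797 and 0.293 in shControl. The lowest shThoc1 value and the highest shControl value lay next to each other. DESeq2, run without that filter but with its own for adjusted p-values, gave a log2 fold change of 2.15 (SE 1.09, adjusted p = 0.213). Without shThoc1 replicate 2 Fabp1 passed the filter and had a log2 fold change of 2.45 (SE 0.83, adjusted p = 0.117 by edgeR). Of the 7 liver and gut genes listed, Alb had 1 to 5 and Apoa1 0 to 1 counts per library. Others of that list had more, with 0 to 67 counts for Ttr and 2 to 22 for Vil1. Fabp2 had 5, 3 and 2 counts in shThoc1 and 0, 1 and 1 counts in shControl. In CPM Fabp2 lay above shControl without overlap, as Fabp1 did, while Ttr lay below it. The part of liver or gut cells in the level of Fabp1 was not tested.

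Plet1 encodes a small surface protein that is also expressed by airway and other epithelia. It was at 57.7, 59.8 and 46.1 CPM in shThoc1 replicates 1, 2 and 3, against 43.3, 37.4 and 28.3 CPM in shControl. The groups did not overlap, and Plet1 was the steadiest of the 9 genes, with the highest library at 2.11 times the lowest. The log2 fold change of Plet1 was 0.59 (SE 0.23, adjusted p = 0.304 by edgeR) and ranged from 0.43 to 0.73 when each library was left out, with 0.45 (SE 0.24, adjusted p = 0.248) without shThoc1 replicate 2. An antisense gene, Plet1os, overlaps its exons and had 2, 5 and 2 counts in shThoc1 and 1, 1 and 4 counts in shControl, against 386 to 830 counts for Plet1. Without a known strand setting, reads of Plet1 and Plet1os cannot be told apart. The club cell gene Scgb1a1 was at 21909, 8985 and 17136 CPM in shThoc1 and 6756, 8472 and 14035 CPM in shControl, and Scgb3a2 at 1189, 2447 and 1700 CPM in shThoc1 and at 411, 595 and 1664 CPM in shControl. The part of airway cells in the level of Plet1 was not tested.

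Pparg encodes the nuclear receptor that GM-CSF induces in fetal monocytes and that alveolar macrophages need to mature, and it is also the master regulator of fat cells. It was at 13.0, 31.8 and 7.65 CPM in shThoc1 replicates 1, 2 and 3, against 6.16, 6.05 and 5.57 CPM in shControl. The groups did not overlap, the shControl libraries lay close together, and shThoc1 replicate 2 held 5.37 times the shControl mean. The log2 fold change of Pparg was 1.56 (SE 0.55, adjusted p = 0.304 by edgeR). Without shThoc1 replicate 2 it was 0.74 (SE 0.33, adjusted p = 0.188), still above every shControl library in both remaining shThoc1 libraries.

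Of the 9 fat cell genes, 8 were highest in shThoc1 replicate 2, the library with the highest Pparg, and Lipe was the exception. The 9 fat cell genes summed to 75.9, 1333 and 54.4 CPM in shThoc1 replicates 1, 2 and 3, against 31.2, 24.5 and 102 CPM in shControl replicates 1, 2 and 3. Of the 4 that could be tested, 4 were above 0 and 0 passed, and the median log2 fold change was 2.61, or 0.12 without shThoc1 replicate 2. In shControl replicate 3, where Adipoq was at 7.10 CPM, Pparg was at its lowest. The lipase gene Lipe was at 67.4, 58.7 and 43.8 CPM in shThoc1 and 26.3, 21.1 and 33.3 CPM in shControl, and the adrenergic receptor gene Adrb3 at 5.00, 7.61 and 5.13 CPM in shThoc1 and at 1.82, 1.04 and 2.56 CPM in shControl (adjusted p = 0.304 for both by edgeR). The part of fat cells in the level of Pparg was not tested.

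**Figure D4:**
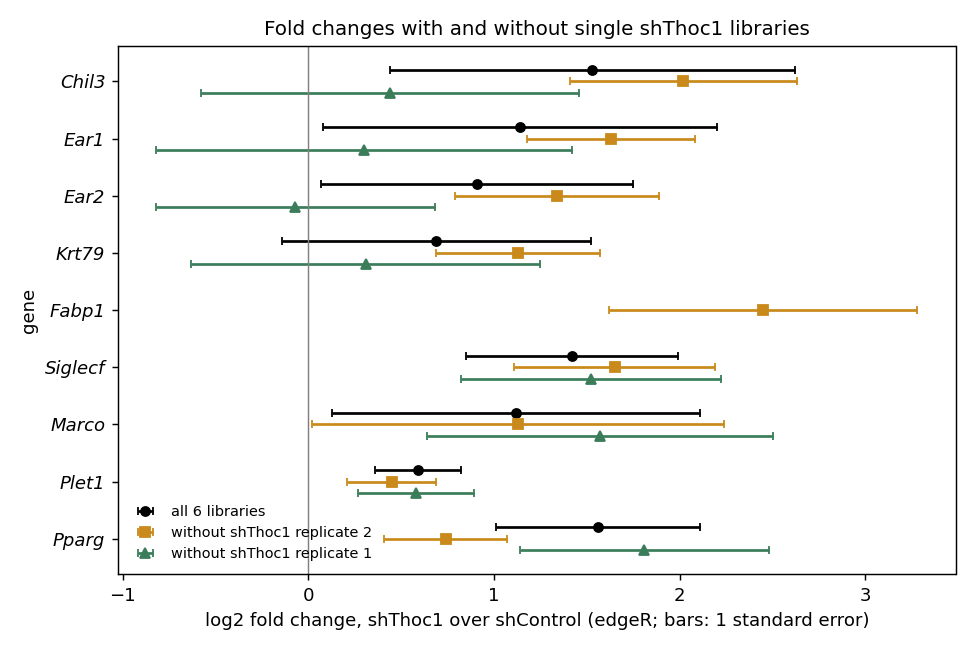
Log2 fold change of shThoc1 over shControl for each gene by edgeR, with bars of 1 standard error, from all 6 libraries, without shThoc1 replicate 2 and without shThoc1 replicate 1. Fabp1 was tested only without shThoc1 replicate 2. Without shThoc1 replicate 2 the value of Pparg was 0.74, against 1.56 with all libraries, and that of Chil3 was 2.02, against 1.53.

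The signals and regulators upstream of Pparg were listed with it. Of 17 genes of GM-CSF and TGF-beta signalling and of macrophage transcription, 13 were above 0, the median log2 fold change was 0.41, and 0 passed the test. Csf2, the GM-CSF gene itself, was at 1.46, 0.296 and 0.817 CPM in shThoc1 replicates 1, 2 and 3 and at 0.840, 0.797 and 0.513 CPM in shControl, so the groups overlapped. The shared receptor chain gene Csf2rb was at 58.1, 107 and 51.1 CPM in shThoc1, above the 41.1, 43.6 and 23.6 CPM in shControl (log2 fold change 1.00, SE 0.38, adjusted p = 0.304 by edgeR). Its paralogue Csf2rb2 was at 13.1, 74.7 and 13.7 CPM in shThoc1 and 12.9, 11.6 and 8.49 CPM in shControl, and reads may be shared between both. The macrophage factor gene Spi1 was at 33.7, 18.6 and 19.1 CPM in shThoc1, above the 16.3, 17.1 and 13.8 CPM in shControl (adjusted p = 0.358).

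Alveolar macrophages take up and export the lipids of surfactant, and PPAR-gamma is known to control many genes of that work. Of the 15 lipid handling genes listed, 13 were above 0, the median log2 fold change was 0.82, and 0 passed the test. Without shThoc1 replicate 2, 11 were above 0, the median was 0.81 and 1 passed, where 1.65% of all genes tested passed. Lpl, the lipoprotein lipase gene, was at 168, 206 and 141 CPM in shThoc1 replicates 1, 2 and 3, against 63.9, 45.0 and 63.9 CPM in shControl (log2 fold change 1.58, SE 0.24, adjusted p = 0.304 by edgeR). Acaa1b, a peroxisomal thiolase gene, was at 4.66, 4.25 and 5.20 CPM in shThoc1 and 1.61, 1.91 and 1.90 CPM in shControl (log2 fold change 1.37, SE 0.33, adjusted p = 0.304). Both were above shControl in every shThoc1 library, shThoc1 replicate 2 included. Nr1h3, which encodes the oxysterol receptor LXR-alpha, was at 46.8, 33.7 and 44.4 CPM in shThoc1 and 15.7, 26.4 and 15.0 CPM in shControl. Fabp4, shared by alveolar macrophages, fat cells and capillaries, was at 44.4, 1391 and 45.3 CPM in shThoc1 and at 42.1, 37.9 and 94.2 CPM in shControl, so that only shThoc1 replicate 2 stood out. Lipid genes such as Lpl and Cd36 are also expressed by capillaries, muscle and fat, and the cells behind them were not identified.

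Further alveolar macrophage markers and macrophage-wide genes were listed beside the 9 genes, with no test of a difference between the lists. Of 19 further markers in the table, 12 were above 0 and 7 below, with a median log2 fold change of 0.35. Those below 0 were Mrc1 (−0.42), Siglec1 (−0.46), Ctsk (−0.55), Slc39a2 (−0.26), Fcgr1 (−0.72), Msr1 (−0.54) and F7 (−0.15). Itgax, Cd9 and Cd2, given next, were among the 12 above 0. Without shThoc1 replicate 2 the median of these markers was 0.26, 14 were above 0 and 1 passed the test, where 1.65% of all genes tested passed. The integrin gene Itgax, which encodes CD11c, was at 36.7, 13.5 and 27.8 CPM in shThoc1 and 24.9, 20.1 and 12.1 CPM in shControl. Cd9 was at 452, 291 and 420.1 CPM in shThoc1 and 188, 351 and 234 CPM in shControl (adjusted p = 0.374). Cd2, which T cells carry as well, was at 12.9, 117 and 15.4 CPM in shThoc1 and 11.9, 6.61 and 4.91 CPM in shControl (adjusted p = 0.304). Of 12 macrophage-wide genes, 10 were above 0 and the median was 0.54, or 0.29 without shThoc1 replicate 2. The pan-macrophage gene Cd68 was at 28.7, 34.0 and 19.2 CPM in shThoc1 and 37.0, 25.0 and 19.4 CPM in shControl, and Adgre1, the F4/80 gene, at 18.3, 9.78 and 14.7 CPM in shThoc1 and at 19.7, 14.8 and 13.1 CPM in shControl. The receptor gene Csf1r was at 117, 76.4 and 94.5 CPM in shThoc1, above the 65.1, 65.6 and 49.8 CPM in shControl, as was Laptm5, which all leukocytes express, at 129, 199 and 108 CPM in shThoc1 and 82.8, 86.2 and 52.4 CPM in shControl (adjusted p = 0.304 for both by edgeR).

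Markers of interstitial and monocyte-derived macrophages had 12 of 20 members above 0 and a median log2 fold change of 0.25. Without shThoc1 replicate 2, 9 of the 20 were above 0 and the median was −0.15. The complement gene C1qa was at 39.6, 109 and 46.8 CPM in shThoc1 replicates 1, 2 and 3, against 70.9, 68.2 and 52.7 CPM in shControl. It was thus highest in shThoc1 replicate 2, where Chil3 was lowest, and below every shControl library in shThoc1 replicates 1 and 3. Apoe showed 522, 1444 and 563 CPM in shThoc1 and 478, 450.4 and 398 CPM in shControl, and Ly6c2 52.1, 87.0 and 37.1 CPM in shThoc1 and 14.3, 41.7 and 13.3 CPM in shControl (adjusted p = 0.340 and 0.312 by edgeR). Neutrophil genes, of interest since Chil3 is also made by myeloid precursors, had 6 of 10 above 0 and a median of 0.15. In shThoc1 replicate 2, 10 of the 11 in the table were lowest, as Chil3 was. Of these, Camp was tied at 0 counts with shControl replicates 1 and 2. S100a8 was at 106, 4.84 and 56.5 CPM in shThoc1 and 21.9, 58.5 and 57.4 CPM in shControl. Their part in the level of Chil3 was not tested.

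The 9 genes were also set against the macrophage-wide genes within each library, as the difference between a gene's log2(CPM + 0.5) and the median of those 12 genes. Chil3 stood at 4.53, −0.28 and 3.60 in shThoc1 replicates 1, 2 and 3, against 2.77, 2.39 and 1.36 in shControl. The mean difference of Chil3 between the groups was 0.44 on this scale (exact two-sided permutation p = 0.8), or 1.89 without shThoc1 replicate 2. Ear1 stood at −1.80, −5.85 and −2.25 in shThoc1 and −2.84, −3.78 and −3.39 in shControl. Relative to macrophage-wide genes, Chil3, Ear1, Ear2 and Krt79 were therefore still lowest in shThoc1 replicate 2 and above every shControl library in shThoc1 replicates 1 and 3. Pparg stood at −1.88, −0.67 and −2.36 in shThoc1 and −2.56, −2.82 and −2.34 in shControl (mean difference 0.93, exact p = 0.2), with the groups now overlapping. Plet1 stayed within 0.15 to 0.23 in shThoc1 and −0.29 to 0.16 in shControl. The exact p of Plet1 was also 0.2, and those of the other 7 genes ran from 0.4 to 1.

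**Figure D5:**
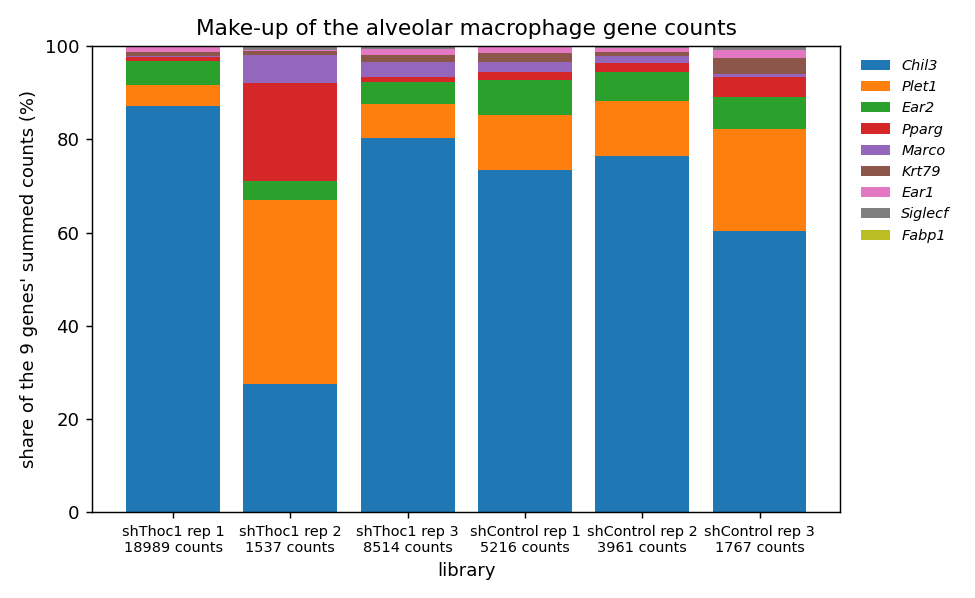
Share of each gene in the summed counts of the 9 genes, in percent, for the 3 shThoc1 and then the 3 shControl libraries, with the summed count under each bar. The shares are not corrected for gene length. Chil3 made up 27.6% in shThoc1 replicate 2 and 60.3% to 87.2% in the other 5 libraries.

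The make-up of the 9 genes' counts comes from the same values and is no separate observation. Where the share of Chil3 falls, the shares of the others together must rise. The 9 genes together had 18989, 1537 and 8514 counts in shThoc1 replicates 1, 2 and 3, against 5216, 3961 and 1767 counts in shControl. Chil3 made up 87.2%, 27.6% and 80.2% of them in shThoc1 and 73.4%, 76.4% and 60.3% in shControl. In shThoc1 replicate 2 Plet1 took 39.4% and Pparg 20.9%, where Pparg took 0.985% to 4.30% in the other 5 libraries. Plet1 was at 59.8 CPM in shThoc1 replicate 2 and at 57.7 CPM in shThoc1 replicate 1, where its share was 4.37%. Per kilobase of exon and over all libraries the order of levels was Chil3, Ear2, Plet1, Ear1, Marco, Pparg, Fabp1, Krt79 and Siglecf. Chil3 was above Ear2 in 6 of 6 libraries and Plet1 above Ear1 in 6 of 6. Ear2 was above Plet1 in 4 of 6, Marco above Pparg in 3 of 6 and Fabp1 above Krt79 in 2 of 6, so the order of these neighbours changed between libraries. Differences between the genes were not tested.

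Among the 9, the profiles most alike over the 6 libraries were those of Ear1 and Ear2, with a root mean square difference of 0.42 between their centred log2 levels, then Krt79 and Ear1 (0.45), Chil3 and Ear1 (0.51) and Chil3 and Ear2 (0.52). The least alike were Chil3 and Pparg, at 2.02. Outside the 9, the 5 genes of 13891 whose centred profile lay nearest to the median profile of the 8 tested genes were Shroom1 (0.15), Pcdhga12 and Kcnh1 (0.22 each), and Adap2 and St6galnac3 (0.23 each). Shroom1 was at 3.47, 0.988 and 3.86 CPM in shThoc1 and 2.03, 1.43 and 1.10 CPM in shControl. Adap2 was at 10.2, 2.47 and 8.02 CPM in shThoc1 and 5.18, 4.30 and 3.30 CPM in shControl. All 5 were lowest in shThoc1 replicate 2, which follows from how they were picked. The median profile they were matched to was itself lowest in that library, at −0.86.

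Tumour transcripts differed between the libraries as well. The 10 neuroendocrine genes summed to 21.4, 283 and 23.9 CPM in shThoc1 replicates 1, 2 and 3, against 774, 97.3 and 716 CPM in shControl replicates 1, 2 and 3, and the 10 genes of dividing cells to 60.5, 685 and 126 CPM in shThoc1 against 1499, 719.6 and 1411 CPM in shControl. With all libraries none of the 10 genes of either list passed the test, and all were below 0. Without shThoc1 replicate 2, 7 of the 10 genes of dividing cells and 1 of the 10 neuroendocrine genes passed, where 1.65% of all genes tested passed. The median log2 fold changes were then −3.74 and −6.82. The proliferation gene Mki67 was at 19.2, 220.1 and 43.7 CPM in shThoc1 and at 380.2, 196 and 413 CPM in shControl. Chil3, Ear1 and Ear2 were highest in shThoc1 replicates 1 and 3, the libraries with the lowest sums of both lists. The order did not hold within shControl, where replicate 1 had the highest Chil3 and the highest neuroendocrine sum. The part of tumour content in the macrophage gene levels was not tested.

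Without shThoc1 replicate 2, all 9 genes passed the filter and all 9 were above 0, with a median log2 fold change of 1.34. None was called, where 1.65% of all genes tested were called in that fit. Of the 8 genes tested with all libraries, 7 then lay above every shControl library, Marco being the exception, where 28% of all genes tested did so. Without shThoc1 replicate 1, the median of the 8 genes was 0.51 and 7 of 8 were above 0.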

How the data were processed

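RNA from mouse lung was prepared with the RNeasy kit and libraries with the NEBNext Ultra kit, per the labels' protocols. The authors deposited raw counts per gene for 6 libraries. The genome build was GRCm39, per the submitters' processing notes, while for the aligner, counting tool and strand setting the sources used here give nothing. The authors' deposited table also holds log2 fold changes, standard errors, p-values, adjusted p-values, a Wald score and a mean normalized signal, under the column names of DESeq2, per the file headers.

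Counts were tested with edgeR 4.0.16 (quasi-likelihood F-test, TMM scaling, filterByExpr with a minimum count of 10, robust) in R 4.3.3. The p-values were adjusted (Benjamini-Hochberg) over all 15287 genes left by that filter, and the threshold was 0.05. CPM used TMM-scaled library sizes, and log2 levels were taken of CPM + 0.5. Exact two-sided permutation tests ran over the 20 assignments of the libraries. Alternatives were other scalings and filters, DESeq2 1.42.0, limma 3.58.1 voom with sample quality weights, each library left out, and shThoc1 replicates 2 and 3 summed. The fits were tested on simulated data. Total counts of 9934583 to 15025199 per library bound the precision for genes with few reads, and no 2 libraries were alike within sampling noise. The closest pair was shThoc1 replicates 1 and 3, at a chi-square per degree of freedom of 20.4, against 38.9 for the next pair. These are the shThoc1 libraries left in the fits without shThoc1 replicate 2.

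The 9 genes and the gene lists were chosen with earlier results of these data known. From each list the 2 genes with the smallest edgeR p were named, beside a fixed set of markers, of which 1 is not reported here. Nr1h3, Spi1, Ucp1, Il5ra, Ccr3, Apoa1, Plet1os, Fabp2 and Camp were added after their values had been seen. So were the 7 further alveolar macrophage markers below 0. Exon lengths, overlaps and transcript sequences came from GENCODE M21 on GRCm38, and upstream sequences from RefSeq.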

Additional observations from a re-analysis of the deposited data

How the results depend on the processing

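None of the 9 genes passed in edgeR under another scaling or filter, with any library left out or with shThoc1 replicates 2 and 3 summed, nor in DESeq2. Voom with sample quality weights called 1, Siglecf, and the cause was not tested. When each library was left out in turn, the median log2 fold change ranged from 0.51 (without shThoc1 replicate 1) to 1.48 (without shControl replicate 1), against 1.13 with all libraries. The number of genes above 0 ranged from 7 to 9, and the number whose groups did not overlap from 3 to 7, the highest without shThoc1 replicate 2, where 28% of all genes tested also lay above shControl. The median level relative to macrophage-wide genes differed by 0.27 to 0.80, against 0.46, and by 0.76 with Cd68 alone as the scale. Of 103 single values over 13 settings, 101 kept their direction and side of the threshold. Ear2 ranged from −0.07 (without shThoc1 replicate 1) to 1.34 (without shThoc1 replicate 2), and Siglecf passed with the quality weights. The count of 101 is no measure of stability, since edgeR called 0 of all 15287 genes tested with all libraries. Sizes moved when each library was left out, with Chil3 from 0.44 to 2.02 and Plet1 from 0.43 to 0.73. In simulated data with the spread estimated here, edgeR recovered 1% and DESeq2 62% of genes changed 4-fold among 15287 genes. Of genes changed 2-fold, edgeR recovered 0% and DESeq2 12%. A gene of this group that misses the threshold is therefore not shown to be unaltered. The genes with the fewest counts, Fabp1 and Siglecf, are further limited by depth. No paired analysis was possible because the replicate numbers were given in record order and pair no libraries.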

Other observations

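The 9 T cell genes in the table were all highest in shThoc1 replicate 2. Of 9 tested, 9 were above 0 with a median log2 fold change of 2.98, or 0.89 without shThoc1 replicate 2, and 0 passed. The T cell receptor complex gene Cd3g was at 16.6, 144 and 20.9 CPM in shThoc1 replicates 1, 2 and 3, against 8.47, 7.73 and 7.84 CPM in shControl. Cd5, an inhibitory T cell receptor gene, was at 4.52, 50.4 and 4.98 CPM in shThoc1 and 2.73, 1.51 and 1.90 CPM in shControl (edgeR adjusted p = 0.304 for both). The shControl libraries lay below every shThoc1 library for both genes.

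Related genes named for their likeness to the 9 did not share 1 order. Chia1, which encodes an acidic chitinase secreted in the lung and is a relative of Chil3, had 3515, 71 and 2161 counts in shThoc1 replicates 1, 2 and 3, against 482, 829 and 625 counts in shControl. It was thus lowest in shThoc1 replicate 2, as Chil3 was, with a log2 fold change of 1.50 (SE 1.06, edgeR adjusted p = 0.471). Siglecg, a B cell lectin gene of the Siglec family, had 53, 326 and 63 counts in shThoc1 and 53, 52 and 25 counts in shControl. Siglece, which encodes a myeloid lectin of that family, had 122, 10 and 89 counts in shThoc1 and 56, 71 and 46 counts in shControl. Rnase2a, another ribonuclease of the Ear family, had 8, 4 and 5 counts in shThoc1 and 16, 10 and 5 counts in shControl, too few to test.

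Other lists gave these values. Of 6 airway genes tested, 5 were above 0 with a median log2 fold change of 0.98, or −3.21 without shThoc1 replicate 2. Of 3 liver and gut genes tested, 2 were above 0 with a median of 0.05, or −0.39 without shThoc1 replicate 2. Of 2 eosinophil genes tested, 2 were above 0 with a median of 2.64, or 0.01 without shThoc1 replicate 2. The neutrophil granule gene Ltf, which glands also secrete, was at 22.4, 3284 and 14.2 CPM in shThoc1 and 359.9, 75.2 and 205 CPM in shControl, while the neutrophil precursor gene Ngp was at 0.764, 0.0988 and 1.04 CPM in shThoc1 and 0.560, 1.27 and 1.17 CPM in shControl. None of the genes in these lists passed the test. The liver and gut genes Ttr and Vil1 stayed at or under 2.07 CPM in shThoc1 and 4.91 CPM in shControl.

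Of the tumour lists, the adhesion gene Ncam1 was at 1.39, 8.10 and 2.82 CPM in shThoc1 and 113, 6.61 and 66.6 CPM in shControl. Chgb, a secretory granule gene, was at 0.278, 5.63 and 0.446 CPM in shThoc1 and 41.2, 2.55 and 71.5 CPM in shControl. The mitotic genes Aurkb and Cdc20 did not overlap between the groups. Aurkb was at 1.39, 8.20 and 2.08 CPM in shThoc1 and 29.1, 14.3 and 22.2 CPM in shControl, and Cdc20 at 4.93, 28.8 and 7.13 CPM in shThoc1 and 107, 40.2 and 83.9 CPM in shControl (edgeR adjusted p = 0.304 for each of these 4 genes).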
